A study of Mus musculus with 48 samples.

Results

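The first 4 h of light late at night in the mouse pars tuberalis were examined on 8 expression arrays, chosen among the 48 of the study as those labelled ZT16 and ZT20 in the condition named long day advance and in the short-day condition, with 2 arrays in each of the 4 groups. Each array carried RNA from a pool of 25 male CBA/N mice, taken by needle punch (0.5 mm) from frozen brain slices of 0.5 mm, and the procedure was run again to give the second array. All animals had lived under short days for 3 weeks from the age of 3 weeks, with 8 h of light at 400 lux and 16 h of darkness, ZT0 being lights-on of that cycle. The short-day animals stayed in that cycle for another 2 weeks and are labelled 8 weeks old, and ZT16 and ZT20 both fell in their darkness. The advance animals, labelled 6 weeks old, were moved at ZT16 to their first long day by lights coming on 8 h early, so their ZT16 arrays were taken at lights-on and their ZT20 arrays after 4 h of light. Age and set of mice therefore cannot be told apart from the condition at any single time, and the contrast used here, the difference ZT20 minus ZT16 of the lit animals less that of the dark ones, subtracts any such difference that adds to the log2 level at both times.

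The pars tuberalis is the sheet of tissue around the pituitary stalk that is dense in melatonin receptors and holds a population of thyrotrophs. Melatonin, secreted in darkness and stopped by light at night, acts there mainly by lowering cyclic AMP, and light that falls late in the night is read as a lengthening day. Thyrotropin made in this tissue then acts on neighbouring tanycytes, which raise the deiodinase that activates thyroid hormone, and the transcriptional co-activator Eya3 is among the genes known to precede that change.

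The tissue label was checked against the markers of pars tuberalis thyrotrophs. Over the 8 arrays, Cga, the common alpha subunit of the glycoprotein hormones, lay between 13.65 and 14.37, Tshb, the beta subunit of thyrotropin, between 10.18 and 12.42, and the melatonin receptor Mtnr1a at 8.63 or below (log2 level), against an upper quartile of 8.84 over probe sets. The punch also held neighbouring tissue, with Snap25, a synaptic protein of neurons, at 12.18 to 12.53, and in such bulk tissue fewer cells of a type and less RNA per cell cannot be told apart. Array medians lay between 6.98 and 7.01, and the difference between 3' and 5' actin probes, a sign of RNA quality, between 1.66 and 1.93. The SD over genes of the difference between the 2 arrays of a group was 0.149 to 0.153 in 3 of the groups and 0.267 in the short-day group at ZT16. Replicate 2 of that group stood farther from the other times of its condition than any other of the 48 arrays did (root mean square 0.245, against 0.155 for replicate 1), and counts are therefore given with and without these arrays.

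Of 18194 genes, 40 passed the contrast between the conditions (limma, adjusted p below 0.05, 0.22% of genes tested), and 33 of them changed upward in light relative to darkness (0.181%) and 7 downward (0.0385%). Their changes were large for 4 h: 18 of the 33 and 4 of the 7 were 2-fold or more. The upward genes were led by the cyclic nucleotide phosphodiesterase Pde10a, the activin-binding protein Fst, the hedgehog-binding protein Hhip, the nuclear receptor Rorb and the co-activator Eya3, and the downward genes by the vascular growth factor Vegfd and the kelch protein Klhl41. At an unadjusted p below 0.05 there were 1128 genes (6.2%), 1.98% of genes upward and 4.22% downward, and the median of all genes was -0.06 (log2). Leaving out replicate 2 of the short-day group at ZT16 gave 28 genes, and leaving out replicate 1 gave 334. The count was 26 without replicate 2 of the short-day group at ZT20, 21 without replicate 2 of advance at ZT16 and 18 without replicate 2 of advance at ZT20. In all 8 such omissions 15 genes passed, namely Dram1, Pde10a, Nrp2, Hhip, Rorb, Srxn1, Vegfd, Emd, Klhl41, Crem, Eya3, Hdac4, Maff, Thrsp and 1 predicted gene with no gene name.

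The 33 upward genes had one shape. In advance they rose by 0.60 to 2.65 (median 1.03, log2) over the 4 h, while under short days the same genes moved by -0.47 to 0.74 (median 0.01). A small change in darkness is not particular to them, since the median of all genes there was 0.04 and 18 genes passed (0.0989%). For all 33 the pair of advance arrays at ZT20 lay above the other 6 arrays, which held for 8% of all genes, but passing this contrast favours that order and it is given as a description. For 29 of the 33 the group at ZT20 in advance was the highest of the 24 groups of the study, as for 4.82% of all genes. The choice of genes favours this rank as well. The exceptions were Hdac4 and Dio2, highest at ZT12 in advance, Slco1c1, highest at ZT16 under long days, and Rbm46, highest at ZT12 under long days.

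**Figure D1:**
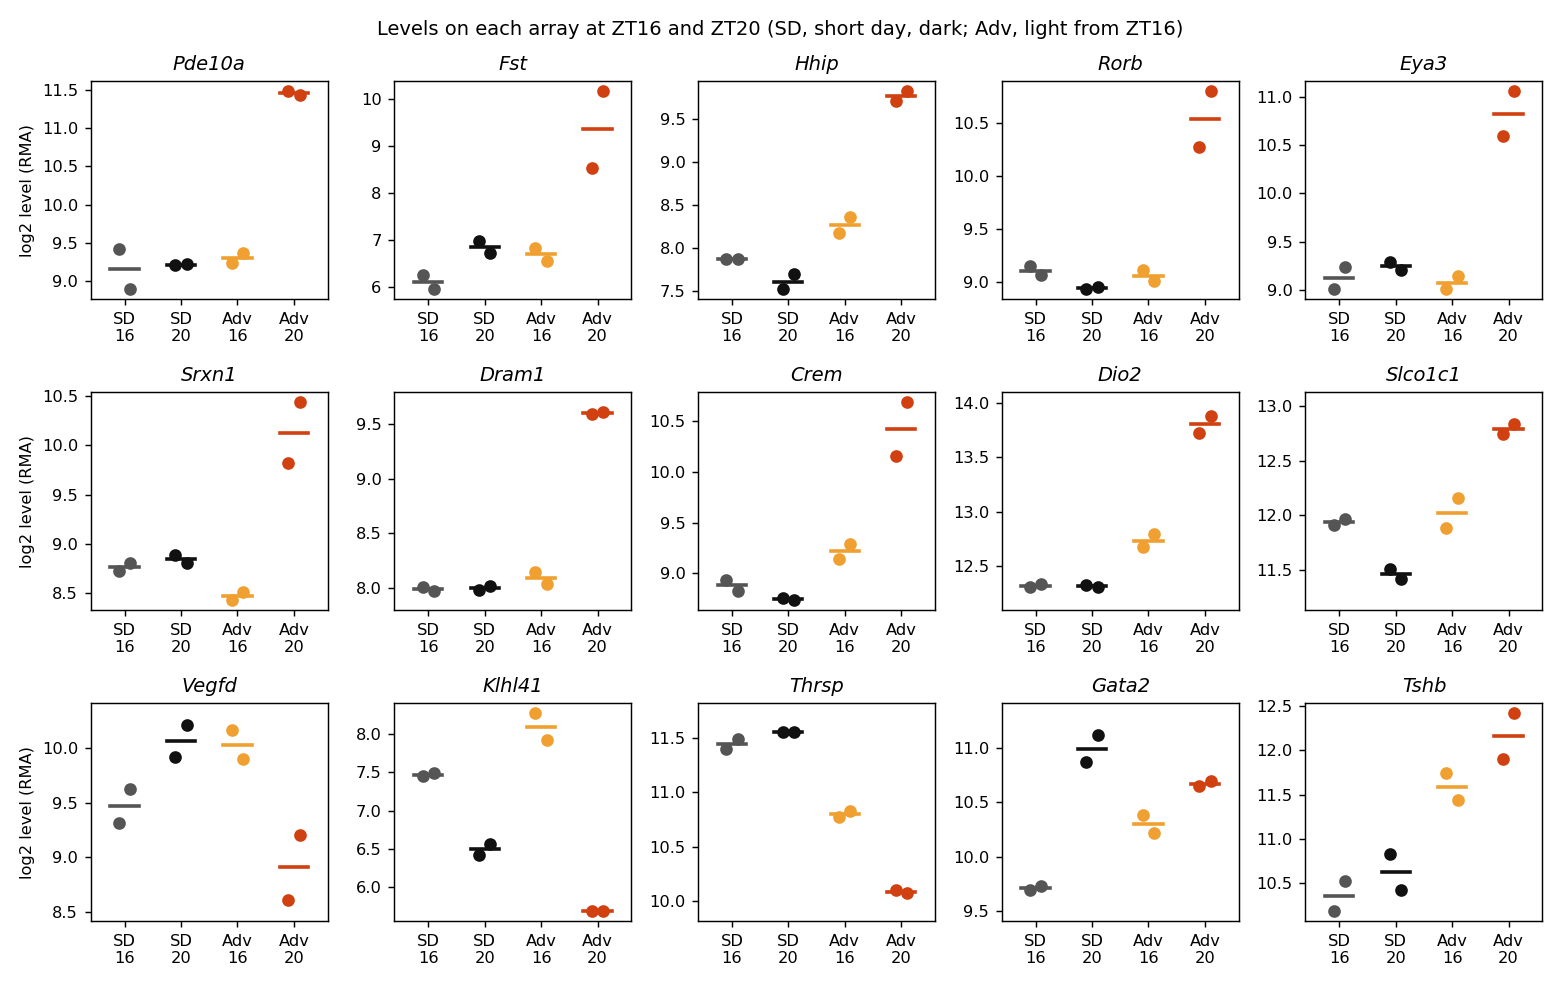
Level of 15 genes (vertical axis, log2 RMA value) on each array of the 4 groups (horizontal axis: SD, short day; Adv, advance; 16 and 20, ZT); points are arrays and lines the mean of 2. The advance points at ZT20 stand above the other 6 for the first 10 genes and below them for Vegfd, Klhl41 and Thrsp, whereas for Gata2 the short-day arrays at ZT20 are highest and for Tshb both advance groups are high.

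Genes that act on or answer to cyclic AMP were few among those that passed, but held its largest change. Pde10a, which degrades cyclic AMP and cyclic GMP, stood at 9.42 and 8.89 on the short-day arrays at ZT16, 9.21 and 9.22 at ZT20, 9.24 and 9.36 on the advance arrays at lights-on, and 11.49 and 11.43 after 4 h of light (log2 level). Both lit arrays were thus at least 2.01 log2 units above all others, and the contrast was 2.10 ± 0.24 (log2, SE; 4.29-fold; adjusted p = 3.34e-06). Its 4 other probe sets moved upward by 0.11 to 2.23 (log2). Crem, a transcription factor of the CREB family whose short isoforms repress cyclic AMP targets, read 8.94 and 8.83, then 8.76 and 8.73 in darkness, and 9.14 and 9.29, then 10.16 and 10.69 in light. The groups did not overlap at ZT20, and the contrast was 1.34 ± 0.21 (log2, SE; adjusted p = 0.000539). Among 22 measured phosphodiesterases Pde10a was the gene that passed, and the list's median was -0.02 against -0.06 for all genes. Pde4d and Pde4b, which degrade cyclic AMP, had contrasts of 0.36 ± 0.12 and 0.25 ± 0.16 (log2, SE) that did not pass. Among 22 measured CREB family members and targets Crem was the gene that passed (median -0.06), and the orphan receptor Nr4a3, an inducible CREB target, stood at 0.84 ± 0.20 (adjusted p = 0.093). A second Nr4a3 probe set of similar mean level (7.97, against 8.10) gave 0.01 ± 0.18, and a dim one 0.15 ± 0.21. None of 25 measured cyclic AMP signalling genes passed (limma, 1 at an unadjusted p below 0.05, downward), and 5 of the 25 had a contrast above 0, against 35.8% of all genes. In darkness 19 of the 25 moved up (median 0.07), against 62.6% of all genes. In light 13 of the 25 moved up (median 0.0009), against 42%.

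Of 29 measured immediate early genes, which are transcribed within minutes of a stimulus in many tissues, Maff was the gene that passed. Maff, a small basic leucine zipper protein, read 6.42 and 6.18, then 6.46 and 6.43 in darkness, and 6.70 and 6.47, then 7.68 and 7.85 in light. The lit arrays were at least 0.98 above every other array, with a contrast of 1.04 ± 0.17 (log2, SE; adjusted p = 0.00132). The list's median was -0.16 and 8 of its members had a contrast above 0. Fos lay at 9.55 and 9.71 on the lit arrays and between 9.66 and 10.49 on the other 6, a contrast of -0.46 ± 0.59. Egr1, a zinc finger factor, gained 1.15 in darkness (adjusted p = 0.00337) and 0.55 in light (adjusted p = 0.41), and its contrast of -0.60 ± 0.28 did not pass.

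Among the photoperiod and thyrotroph genes, 3 of 14 measured passed upward (Eya3, Dio2 and Trhr) and 1 downward (Gata2), against 0.181% and 0.0385% of all genes, with a list median of 0.01. This list was drawn up with earlier results of the same arrays known, so its count is no independent evidence. Eya3, a co-activator and phosphatase that works with homeobox proteins, stood at 9.01 and 9.24, then 9.30 and 9.21 in darkness, and at 9.01 and 9.15, then 10.59 and 11.06 in light. The 6 unlit arrays spanned only 0.29, and the contrast was 1.62 ± 0.26 (log2, SE; 3.06-fold; adjusted p = 0.000685). A second well-expressed Eya3 probe set gave 1.49 ± 0.25, while the dimmest of its 4, with a mean level of 4.48, gave -0.18 ± 0.18. Eya3 was the gene that passed among 11 measured EYA, DACH and partner homeobox genes, and its paralogue Eya4 had a contrast of -0.36 ± 0.27. Tshb did not show a response of this kind at 4 h. It stood at 10.18 and 10.53, then 10.83 and 10.43 in darkness, and at 11.74 and 11.44, then 11.91 and 12.42 in light. The advance arrays were higher already at lights-on, by 1.23 (log2; adjusted p = 0.0272), and the contrast was 0.30 ± 0.55 (adjusted p = 0.947; 95% interval -0.82 to 1.42). Cga had a contrast of 0.06 ± 0.20, Mtnr1a of -0.60 ± 0.56, and the PAR leucine zipper factors Tef, Hlf and Dbp of -0.20 ± 0.16, 0.31 ± 0.18 and -0.07 ± 0.34, none of which passed.

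Of 15 measured genes of thyroid hormone handling, 3 passed upward and none downward, against 0.181% and 0.0385% of all genes. This list too was drawn up with earlier results of the same arrays known, and it shares Dio2 and Trhr with the photoperiod list. Its count is therefore no independent evidence. Dio2, the deiodinase that converts thyroxine to its active form, read 12.31 and 12.34, then 12.32 and 12.31 in darkness, and 12.67 and 12.79, then 13.72 and 13.88 in light. In darkness the 4 arrays were within 0.03 of one another, and in light both ZT20 arrays were higher by about 1 log2 unit, with a contrast of 1.07 ± 0.20 (2.10-fold; adjusted p = 0.00563). Slco1c1, a carrier of thyroxine, stood at 11.91 and 11.96, then 11.51 and 11.42 in darkness, and at 11.88 and 12.16, then 12.75 and 12.84 in light. It moved down in darkness and up in light, by -0.47 and 0.78, and the contrast was 1.25 ± 0.26 (adjusted p = 0.0153). Trhr, the receptor of thyrotropin-releasing hormone, read 8.24 and 8.18, then 8.38 and 8.20 in darkness, and 8.65 and 8.58, then 9.63 and 9.66 in light, a contrast of 0.95 ± 0.19 (adjusted p = 0.0109). Omitting single arrays kept these contrasts at 0.99 to 1.15, 1.11 to 1.39 and 0.86 to 1.04, while the adjusted p rose to as much as 0.0764, 0.193 and 0.115. The list's median was -0.01, and the thyroid hormone receptor Thra had a contrast of -0.23 ± 0.13 that did not pass. Dio2 was also the gene that passed among 11 measured tanycyte markers, whose median was -0.18 and whose mean level ran from 10.75 to 10.96 over the 8 arrays.

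The promoters of the genes that passed were read for the cyclic AMP response element, the site bound by CREB and CREM proteins, since both a gene that degrades cyclic AMP and Crem itself were among them. RefSeq start sites (GRCm38.p6) were at hand for 35 of the 40 genes. The full palindrome TGACGTCA occurred within 250 bases upstream of a start in 4 of the 28 upward genes with an entry, Dio2, Hhip, Maff and Cldn7, and in 0 of the 7 downward genes. It occurred in 361 of 14453 genes on the array with an entry (2.5%), and in 1.55% of all 32851 promoters of the same length. To show where the palindrome lies, the 4 promoters are given with that of Eya3, which had no match in the window, each as the 120 bases that end just before the start, with the palindrome in capitals.
Dio2 (chr12:90739039-90739158, minus strand): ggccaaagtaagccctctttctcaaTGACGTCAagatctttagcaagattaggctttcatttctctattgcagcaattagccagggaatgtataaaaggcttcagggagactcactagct
Hhip (chr8:80058009-80058128, minus strand): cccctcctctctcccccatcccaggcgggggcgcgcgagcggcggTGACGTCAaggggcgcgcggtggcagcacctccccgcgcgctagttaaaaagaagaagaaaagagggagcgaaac
Maff (chr15:79347400-79347519, plus strand): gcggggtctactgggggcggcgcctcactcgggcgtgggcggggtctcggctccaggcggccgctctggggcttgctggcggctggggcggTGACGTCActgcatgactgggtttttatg
Cldn7 (chr11:69965301-69965420, plus strand): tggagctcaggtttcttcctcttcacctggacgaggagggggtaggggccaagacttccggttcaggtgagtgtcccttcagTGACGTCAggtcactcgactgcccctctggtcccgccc
Eya3 (chr4:132638926-132639045, plus strand): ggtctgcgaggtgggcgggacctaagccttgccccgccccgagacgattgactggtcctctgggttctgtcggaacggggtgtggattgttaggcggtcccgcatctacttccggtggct
The first base of the palindrome lay 95 bases before the start in Dio2, 75 in Hhip, 29 in Maff and 38 in Cldn7. The shorter site TGACG on either strand, which every full palindrome also holds, was found in 11 of the 28 upward genes, against 25.9% of array genes, and in 0 of the 7 downward genes. Neither Pde10a nor Crem was among the genes with a match to the palindrome or to TGACG, and genes with no entry were not searched. The E-box CACGTG was found in 4 of the 28, against 8.73%, and the D-box forms TTATGTAA and TTACGTAA in 0 of the 28, against 0.913%. The letters AGGTCA, part of the element read by ROR receptors, were found in 3 of the 28, against 14.6%, and TGACNNNGC, the core of the antioxidant element, in 3 of the 28, against 13.5%. Both strands were searched for each motif. Upstream GC content differed between the sets, with medians of 61.4% for upward, 50.4% for downward and 57.6% for array genes. Its part in these shares was not tested, and a match in letters is not evidence of binding.

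**Figure D2:**
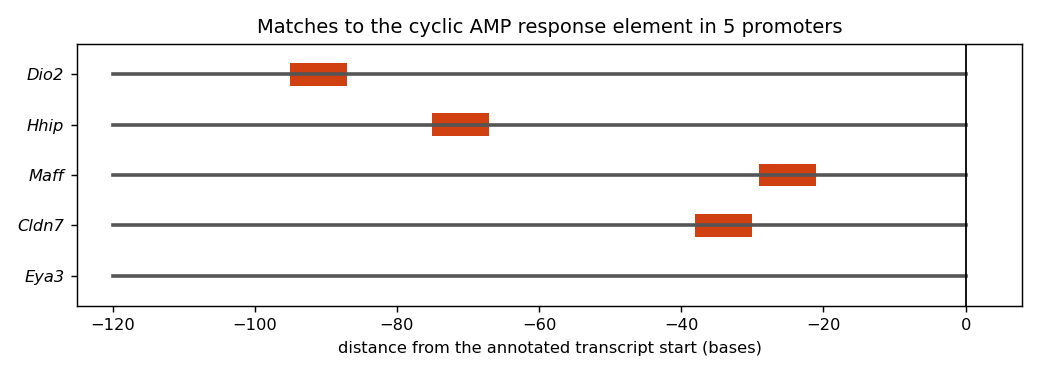
Position of the cyclic AMP response element palindrome (bars, 8 bases long) in the 120 bases upstream of the annotated start (0 on the horizontal axis, in bases) of 5 upward genes. Dio2, Hhip, Maff and Cldn7 hold 1 match each, between 95 and 29 bases before the start, and Eya3 holds none.

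Of these 4 genes, Hhip and Cldn7 remain to be described. Hhip, a membrane protein that binds and damps hedgehog ligands, stood at 7.88 and 7.87, then 7.52 and 7.70 in darkness, and at 8.18 and 8.36, then 9.70 and 9.82 in light. Every advance array was above every short-day array, and those at ZT20 in light were highest, with a contrast of 1.76 ± 0.21 (log2, SE; 3.38-fold; adjusted p = 3.34e-06). Hhip was the gene that passed among 15 measured hedgehog genes, whose median was -0.08, and the ligand Shh and receptor component Smo had contrasts of 0.19 ± 0.15 and -0.20 ± 0.17. Cldn7, a tight junction protein of epithelia, read 8.37 and 8.56, then 8.57 and 8.49 in darkness, and 9.02 and 8.85, then 10.27 and 10.72 in light. Its contrast was 1.49 ± 0.28 (adjusted p = 0.00588), which reached an adjusted p of up to 0.122 when 1 array was left out.

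Secreted signals and their receptors formed a further set. Fst, which binds and blocks activins, stood at 6.27 and 5.96, then 6.98 and 6.73 in darkness, and at 6.84 and 6.57, then 8.54 and 10.17 in light. It had the largest rise in light of the 33 genes, 2.65 (log2), but its lit arrays differed from each other by 1.62, and the short-day arrays also went up by 0.74 (adjusted p = 0.291). The contrast was 1.91 ± 0.38 (3.76-fold; adjusted p = 0.0116), and it fell to 1.10 in the lowest of the omissions of single arrays. In a limma fit to the 8 arrays alone Fst did not pass (adjusted p = 0.528). A second probe set gave 1.39 ± 0.28. Fst was the gene that passed among 19 measured activin and follistatin genes (median -0.10), and Smad3, a mediator of activin signals, gained 0.45 in light (adjusted p = 0.000353) and 0.27 in darkness (adjusted p = 0.155), with a contrast of 0.18 ± 0.11 that did not pass. Bmper, a secreted binding protein of bone morphogenetic proteins, had a contrast of 0.92 ± 0.20 (adjusted p = 0.029). Its adjusted p reached 0.432 in 1 of the omissions.

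Nrp2 and Vegfd are linked as co-receptor and ligand in the VEGF family and changed in opposite directions. Nrp2, a receptor of semaphorins and of vascular growth factors, stood at 9.14 and 9.01, then 9.19 and 9.11 in darkness, and at 9.09 and 9.10, then 10.10 and 10.30 in light, a contrast of 1.03 ± 0.12 (adjusted p = 3.34e-06). Vegfd, a growth factor of lymphatic and blood vessels, read 9.31 and 9.62, then 9.92 and 10.21 in darkness, and 10.17 and 9.90, then 8.61 and 9.20 in light. It moved up by 0.60 in darkness (adjusted p = 0.167) and fell by 1.13 in light, and its contrast of -1.73 ± 0.25 (adjusted p = 0.000143) was the lowest of all 18194 genes. These were the genes that passed among 16 measured VEGF and neuropilin genes, whose median was -0.06. Adamts1, a secreted metalloprotease, and Tnfrsf12a, a receptor of the TNF family, had contrasts of 0.95 ± 0.16 and 0.83 ± 0.17 (adjusted p = 0.00172 and 0.0116).

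Nuclear proteins made up the next set. Rorb, an orphan nuclear receptor of the ROR family, read 9.15 and 9.07, then 8.94 and 8.96 in darkness, and 9.12 and 9.01, then 10.27 and 10.81 in light. The 6 unlit arrays spanned 0.22, and the contrast was 1.64 ± 0.20 (log2, SE; 3.11-fold; adjusted p = 8.81e-06). Hdac4, a histone deacetylase that shuttles between nucleus and cytoplasm, had a contrast of 1.01 ± 0.16 (adjusted p = 0.000946), although its advance arrays began 0.60 below the short-day arrays at lights-on (adjusted p = 0.00101). Emd, emerin of the inner nuclear membrane, and Anp32b, a histone-binding protein, had contrasts of 0.87 ± 0.13 and 0.73 ± 0.16 (adjusted p = 0.000143 and 0.0258). Espl1, the separase that cleaves cohesin, stood at 1.25 ± 0.24 (adjusted p = 0.00958). Its 6 unlit arrays spanned 1.05, and in a limma fit to the 8 arrays alone it did not pass (adjusted p = 0.342).

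Rorb was the gene that passed among 23 measured clock genes (median -0.03). Within light 5 of the 23 changed (4 up, Rorb among them, and 1 down), against 0.539% of all genes up and 0.181% down. Within darkness 4 changed (3 up, 1 down), against 0.0715% and 0.0275% of all genes. Cry1, a repressor of the clock, fell by 1.06 in light and by 1.03 in darkness (log2; adjusted p = 3.28e-06 and 3.08e-05), with a contrast of -0.04 ± 0.19. Nr1d1, another repressor, rose by 0.96 and 0.89 (adjusted p = 1.32e-05 and 0.000251), with a contrast of 0.07 ± 0.19. Per1, Per2 and Arntl had contrasts of 0.03 ± 0.24, -0.03 ± 0.20 and 0.23 ± 0.22 (log2, SE), and none passed.

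Dram1, a lysosomal membrane protein linked to autophagy, stood at 8.01 and 7.97, then 7.98 and 8.01 in darkness, and at 8.14 and 8.03, then 9.60 and 9.61 in light. The 2 lit arrays were alike and far above the rest, with a contrast of 1.51 ± 0.16 (2.85-fold; adjusted p = 7.14e-07), the smallest p of all genes. Srxn1, the sulfiredoxin that restores oxidised peroxiredoxins, read 8.72 and 8.81, then 8.89 and 8.81 in darkness, and 8.43 and 8.51, then 9.82 and 10.44 in light, a contrast of 1.58 ± 0.21 (adjusted p = 2.32e-05). Slc6a4, the serotonin transporter, and Man2a1, a Golgi enzyme of N-glycan processing, had contrasts of 1.18 ± 0.20 and 1.07 ± 0.19 (adjusted p = 0.00172 and 0.00233). Dhrs3, which reduces retinal, was the gene that passed among 19 measured genes of retinoid handling (0.82 ± 0.16, adjusted p = 0.0109; list median -0.03). Lrat, which esterifies retinol, had a larger contrast of 1.11 ± 0.28 that did not pass (adjusted p = 0.104). The other upward genes were Ankrd44, Zswim6, Rbm46, Clasp1, Ttc39c, Rasa2, Pdzrn3 and Cdkl4, with contrasts from 0.61 to 0.98, and the predicted gene. Their microtubule and Ras regulators Clasp1 and Rasa2 stood at 0.61 ± 0.13 and 0.67 ± 0.15. For Cdkl4 and Pdzrn3 a dimmer probe set pointed the other way (-0.93 ± 0.31 and -0.12 ± 0.20), as 2 of the other 3 did for Ankrd44. In all, 43 of 48 other probe sets of the 40 genes had the sign of the one reported, and 15 genes had no other.

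The 7 downward genes were less alike than the upward ones. For Vegfd, Klhl41, Thrsp and Sphkap the lit arrays lay below the other 6, an order found for 10.8% of all genes and favoured by passing this contrast, and for Gata2, Kcnmb2 and Pdzph1 they did not. Klhl41, a kelch protein known from muscle, fell in both conditions. It stood at 7.45 and 7.49, then 6.43 and 6.57 in darkness, and at 8.27 and 7.92, then 5.69 and 5.69 in light. It thus fell by 0.97 in darkness and fell by 2.41 in light (adjusted p = 0.000758 and 5.18e-13), with a contrast of -1.44 ± 0.22 (adjusted p = 0.000264). Its lit level lies near the lower quartile of 5.42 over probe sets. Thrsp, a thyroid hormone responsive protein of lipid synthesis, read 11.39 and 11.49, then 11.55 and 11.55 in darkness, and 10.78 and 10.82, then 10.10 and 10.08 in light. The advance arrays were lower by 0.64 already at lights-on (adjusted p = 9.21e-05), and the contrast was -0.82 ± 0.14 (adjusted p = 0.00132). Dimmer probe sets of Thrsp gave -0.28 ± 0.21 and -0.14 ± 0.18. With the mean of all its probe sets the contrast was -0.42 and did not pass (limma, adjusted p = 0.466). Sphkap, which anchors protein kinase A, had a contrast of -0.66 ± 0.13 (adjusted p = 0.0136).

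Gata2, a transcription factor of thyrotrophs that acts on the thyrotropin genes, passed through its change in darkness. It stood at 9.70 and 9.74, then 10.87 and 11.12 in darkness, and at 10.38 and 10.22, then 10.65 and 10.69 in light. The advance arrays were higher already at lights-on, by 0.59 (adjusted p = 0.00326). The short-day rise was 1.28 ± 0.13 (adjusted p = 2.96e-07) against 0.37 in light (adjusted p = 0.405), so the contrast of -0.91 ± 0.19 (adjusted p = 0.0194) came with no fall in light. Leaving out 1 array in turn left it at -1.03 to -0.78 and raised its adjusted p to as much as 0.248. Kcnmb2, a regulatory subunit of a calcium-activated potassium channel, and Pdzph1 likewise moved up in darkness, by 0.73 and 0.49 (adjusted p = 0.0604 and 0.201). In light they moved down, by 0.38 and 0.58, and neither fall passed (adjusted p = 0.607 and 0.0812). Their contrasts were -1.11 ± 0.24 and -1.07 ± 0.22 (adjusted p = 0.0227 and 0.0145). Omitting 1 array in turn moved Kcnmb2 from -1.51 to -0.71 and Pdzph1 from -1.33 to -0.81, with adjusted p up to 0.434 and 0.293, and they passed in 2 and 3 of the 8 omissions. A second Kcnmb2 probe set gave -0.22 ± 0.20, and the mean of both -0.66 (adjusted p = 0.375). For both genes, the short-day arrays at ZT16 were far apart, 7.28 and 6.48 for Kcnmb2 and 6.81 and 6.29 for Pdzph1. Kcnmb2 means in advance and short days were 7.91 and 6.88 at ZT16, and close at ZT20, at 7.53 and 7.61.

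The changes within each condition show what the contrast removed. In advance 131 genes changed over the 4 h (0.72%), 98 up (0.539%) and 33 down (0.181%), and under short days 18 (0.0989%), 13 up (0.0715%) and 5 down (0.0275%). The genes changed in both were 8, all with the same sign in both, which is 8 of 18 and 8 of 131. They include the transcription factor Neurod1, which fell by 3.30 in light and fell by 2.94 in darkness, and Dusp4, a phosphatase of MAP kinases, which rose by 3.18 and 2.24 (log2). Their contrasts were -0.35 ± 0.25 and 0.94 ± 0.45 and did not pass (adjusted p = 0.865 and 0.786), and Lonrf1, Timeless and Npas2 changed in both conditions as well. Egr1 and Gata2 were among those that passed in darkness and not in light. The short-day count was 7 without replicate 2 at ZT16, 7 without replicate 1 at ZT20 and 972 without replicate 1 at ZT16. The advance count was 75 and 67 without either array at ZT16 and 71 without replicate 2 at ZT20.

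**Figure D3:**
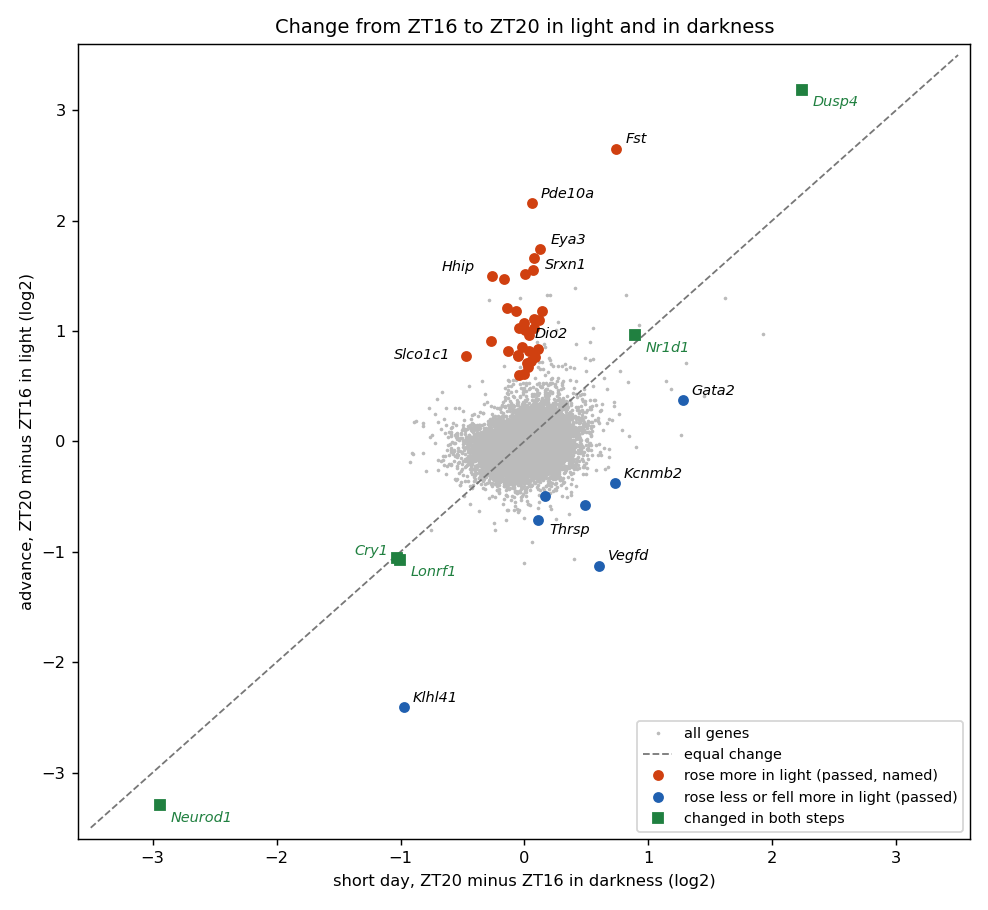
Change from ZT16 to ZT20 in darkness under short days (horizontal axis, log2) and in light on the advance day (vertical axis, log2) for all 18194 genes (grey) and for the 39 named genes whose changes differed between conditions (red 32 upward, blue 7 downward); green squares are 5 other genes changed in both conditions, and the dashed line marks equal change. Upward genes stand near 0 on the horizontal axis, Neurod1, Cry1, Lonrf1 and Nr1d1 lie close to the line, and Gata2 lies at 1.28 in darkness and 0.37 in light.

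At lights-on, ahead of any extra light, the conditions already differed widely. Advance and short-day arrays at ZT16 differed for 3050 genes (16.8%), and at ZT20 for 4186 (23%). The count at ZT16 was 362 without replicate 2 and 4337 without replicate 1 of the short-day group, and 797 and 1643 without the first or second advance array. Of the 33 upward genes 8 differed at ZT16, and of the 7 downward genes 5. The contrast subtracts the ZT16 difference, so passing it downward favours a ZT16 difference above 0, and passing it upward favours the opposite. The counts are therefore given as a description. The largest of these differences were 1.03 for Kcnmb2, -0.64 for Thrsp and 0.63 for Klhl41 (log2, advance minus short day). Some lists of cell markers were shifted at ZT16 too. Medians were -0.37 over 18 hypothalamic neuron genes and 0.41 over 10 meninges and fibroblast genes, against 0.0004 over all genes. Age, set of mice, history and the tissue held in the punch cannot be told apart in the ZT16 differences. The contrast takes them out only as far as they are equal at ZT16 and ZT20.

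The same length of extra light in the evening was given in the condition named long day delay, where lights stayed on past ZT8 in mice of the same labelled age, and its change from ZT8 to ZT12 minus that under short days was compared with the late-night contrast. Late-night and evening responses differed for 29 genes (0.159%), 15 with the higher value late at night (0.0824%) and 14 with the lower (0.0769%), and all 15 of the former were among the 33 upward genes. The late-night contrast is a term of this difference, so genes chosen for passing it are favoured. For Pde10a the late-night value was 2.10 ± 0.24 and the evening value 0.09 ± 0.24, a difference of 2.01 ± 0.34 (adjusted p = 0.00349). For Rorb they were 1.64 ± 0.20 and -0.61 ± 0.20 (difference 2.25 ± 0.29, adjusted p = 4.28e-05), for Hhip 1.76 ± 0.21 and -0.10 ± 0.21, and for Dram1 1.51 ± 0.16 and -0.28 ± 0.16. Eya3 had 1.62 ± 0.26 late at night and 0.19 ± 0.26 in the evening, and the difference of 1.42 ± 0.37 did not pass (adjusted p = 0.147). Neither did that of Dio2, 0.92 ± 0.28 (adjusted p = 0.3). None of the 33 passed in the evening itself (limma, 7 of all genes, 0.0385%, and 1380 or 7.58% at an unadjusted p below 0.05), where their values ran from -0.61 to 0.28 with a median of -0.05. Vegfd stood at -1.73 ± 0.25 late at night and -1.08 ± 0.25 in the evening, where it did not pass (adjusted p = 0.164), and among the downward genes Thrsp differed (-0.82 and 0.39, adjusted p = 0.00235). The count of 29 was 111 without replicate 1 and 10 without replicate 2 of the short-day group at ZT16. It was 10 without replicate 1 of that condition at ZT8, 14 and 18 without either array at ZT12 and 16 without replicate 1 at ZT20. It was 11 and 14 without either advance array at ZT16 and 13 without replicate 2 at ZT20. In delay it was 14 without replicate 2 at ZT8, and 13 and 14 without either array at ZT12.

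**Figure D4:**
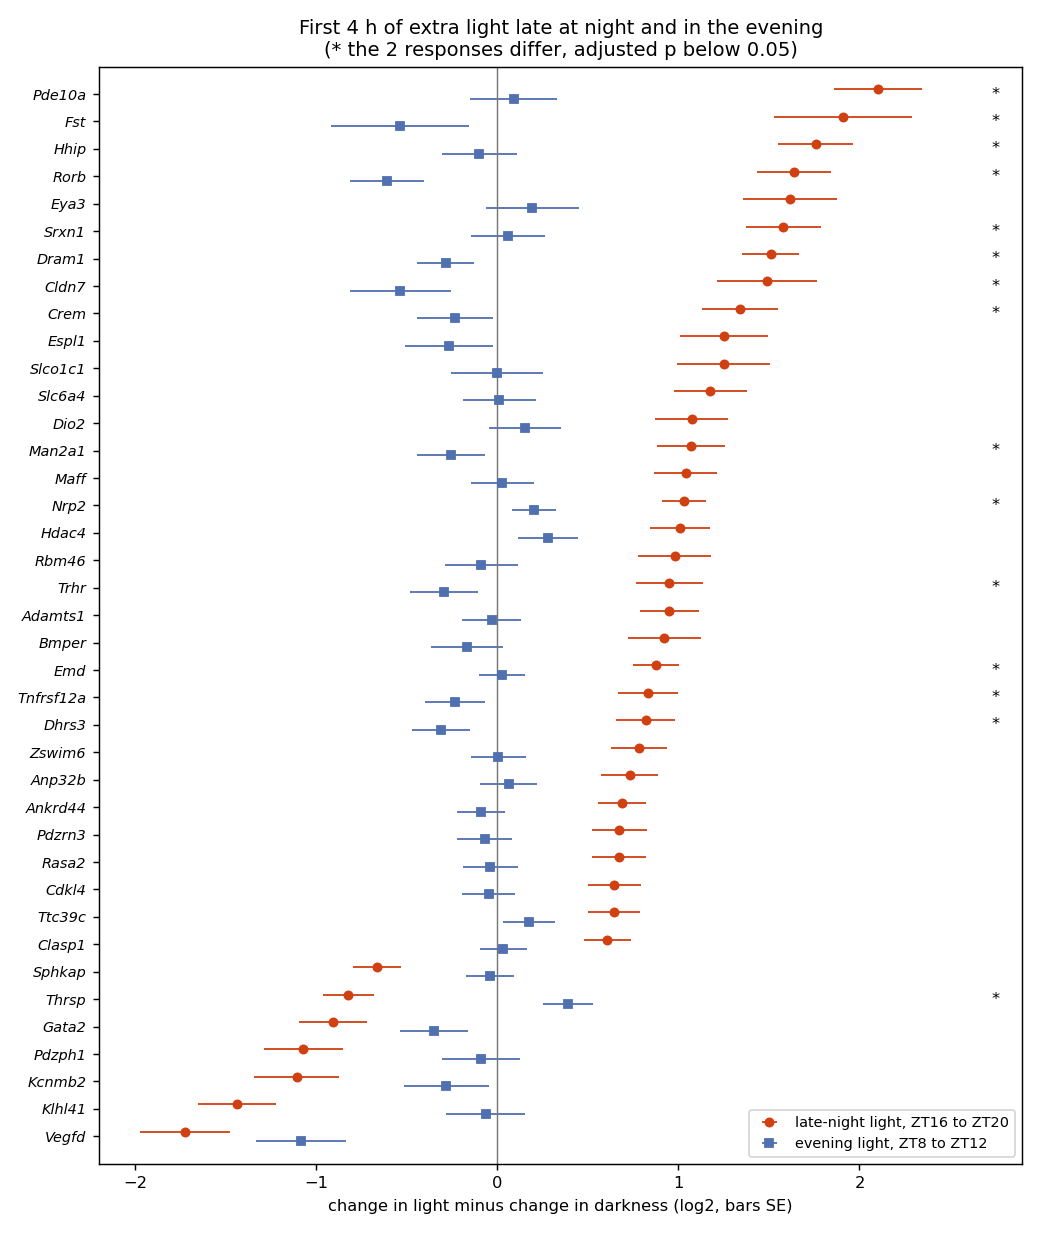
Change in light minus change in darkness (horizontal axis, log2; bars, SE from the model) for the 39 named genes over the first 4 h of extra light late at night (circles) and in the evening (squares). Pde10a, Fst and Hhip stand at 2.10, 1.91 and 1.76 late at night, while the evening values of the upward genes lie between -0.61 and 0.28; a star marks the 15 named genes whose responses differed.

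For most of the upward genes the response was smaller after another 4 h of light. The response at ZT20 exceeded that at ZT0, after 8 h of light and at lights-on of the short-day arrays, for 42 genes (0.231%) and was below it for 7 (0.0385%), 49 in all (0.269%), and 29 of the 33 upward genes were among the 42. Both values share the ZT16 arrays, which cancel in the difference, but the choice of genes favours a high ZT20, so the levels are given beside them. Eya3 in advance read 9.08 at ZT16, 10.82 at ZT20, 9.13 at ZT0 and 10.34 at ZT12, with 9.07 and 9.24 between them (means of 2 arrays), and its short-day means lay between 8.98 and 9.30. Pde10a went from 11.46 at ZT20 to 9.27 at ZT0, below its short-day mean of 10.00 at that time. Crem went from 10.42 to 8.82 and Dio2 from 13.80 to 12.61. Dio2 then stood at 13.18, 13.74 and 13.84 at ZT4, ZT8 and ZT12, above its short-day means of 12.08, 12.56 and 13.13.

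The exceptions among the upward genes were Fst, Cldn7, Slc6a4 and Tnfrsf12a, whose difference between 4 h and 8 h did not pass. Fst stood at 9.36 at ZT20 and still at 7.47 at ZT0, against 6.86 and 6.55 under short days, a difference of 1.58 ± 0.38 (adjusted p = 0.0682). Over all 33, the change after 8 h of light minus that in darkness ran from -0.88 to 0.58 with a median of -0.19, against -0.05 for all genes, and of all genes tested 0 passed (0%; limma, 1695 or 9.32% at an unadjusted p below 0.05). Among the downward genes, Sphkap and Gata2 had a lower value at 4 h than at 8 h, by 0.72 and 1.15. Gata2 was below its short-day level at ZT20, where the difference did not pass, and above it at the next 2 times. Its advance means were 10.67 at ZT20, 10.59 at ZT0 and 10.20 at ZT4, against short-day means of 10.99, 9.76 and 9.97.

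**Figure D5:**
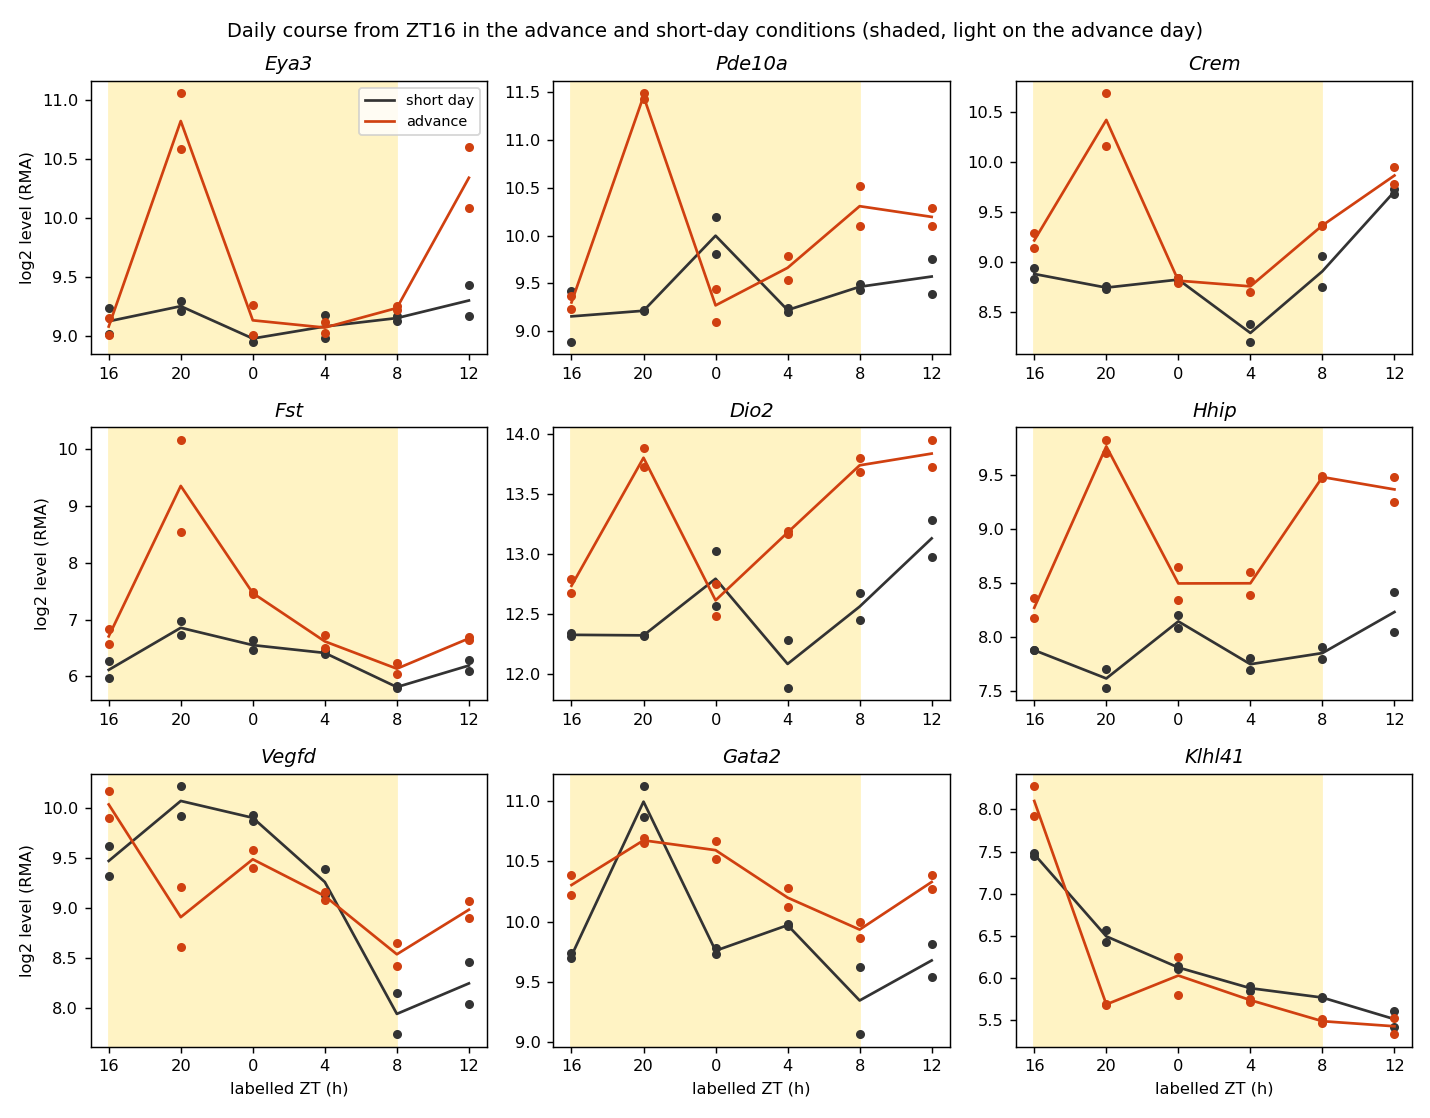
Level of 9 genes (vertical axis, log2 RMA value) by labelled ZT (horizontal axis, h, from ZT16), on the advance day (red) and under short days (black); points are arrays, lines join means of 2, and the shading is the light period of the advance day. Eya3, Pde10a and Crem peak at ZT20 and are down at ZT0, Dio2 and Hhip rise a second time by ZT8, and Klhl41 drops from ZT16 to ZT20 in both conditions.

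Markers of other cells and other pathways were read alongside. None of the lists for pars distalis, ependymal cells, hypothalamic neurons, oligodendrocytes, astrocytes, microglia, endothelium, blood, meninges or choroid plexus held a gene that passed the contrast (limma), and at an unadjusted p below 0.05 they held 0 or 1 each, downward in every case. All 9 choroid plexus genes had a contrast below 0 (median -0.42), with Ttr, their main product, at 14.05 on 1 short-day array at ZT20 against 9.23 to 11.31 on the other 7. The pars distalis list had 2 of 12 genes above 0 (median -0.25), with growth hormone, Gh, at 8.91 on the other short-day array at ZT20 and 6.22 to 7.67 elsewhere. The mean level of that list ran from 7.79 to 8.11 under short days, 7.96 to 8.30 in advance at lights-on and 7.80 to 7.93 in light, and the part of these markers in the results was not tested. The pars tuberalis list had a mean of 9.49 to 9.67, then 9.91 to 9.96 in darkness, and of 9.94 to 10.04, then 10.40 to 10.70 in light. Its median contrast was 0.01, with 3 of 6 measured genes above 0. Eya3, chosen by the contrast, is a member of this short list and rose by 1.74 in light.

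Of the other pathways, mitochondrial complex I had 1 of 34 measured genes above 0 (median -0.16), against 35.8% of all genes (median -0.06). None passed (limma, 1 at an unadjusted p below 0.05, downward), and leaving out replicate 1 or 2 of the short-day group at ZT16 gave medians of -0.10 and -0.23. The low contrasts came largely with rises in darkness, where 33 of the 34 moved up (median 0.13), against 62.6% of all genes (median 0.04). In light 6 of the 34 moved up, against 42% of all genes, and the median was -0.03, against -0.02. Glucocorticoid responsive genes had 2 of 15 above 0 (median -0.19), none passing and 3 at an unadjusted p below 0.05, all downward, against 4.22% of all genes downward at that p. Of these genes 13 moved up in darkness (median 0.13) and 3 in light (median -0.09). Their member Tsc22d3 fell by 0.62 in light (adjusted p = 0.0171) with a contrast of -0.56 ± 0.20 that did not pass. Endoplasmic reticulum folding genes had 13 of 24 above 0 (median 0.03), secretory granule genes 5 of 15 (median -0.04) and heat shock and cold inducible genes 2 of 8 (median -0.10). None of these passed, and at an unadjusted p below 0.05 they held 2, 2 and 0 genes.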

How the data were processed

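The values used are the log2 probe set summaries that the authors deposited, which the submitters' processing notes credit to RMA (R 2.8.0). Of 45101 probe sets 34958 carried 1 symbol in the probe annotation, 932 several and 9211 none, and 34754 were found in the RefSeq gene table. Each gene was read from its probe set with 1 symbol and the highest mean, giving 18194 genes. A model in limma 3.58.1 (R 4.3.3) was fitted to all 48 arrays with 1 mean per group (24 groups, 24 residual degrees of freedom), with empirical Bayes variances trended on level, two-sided tests and Benjamini-Hochberg adjustment over all genes at 0.05. No filter was used. The number of arrays limits the precision, and p-values measure the spread between repeated pools. No pair of arrays was identical. Same-numbered arrays did not deviate together (r from -0.06 to 0.14), so no replicate block was used.

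The genes and lists were chosen with earlier results of these data known. Named were all genes passing the contrast (predicted genes only counted), the 5 largest rises and falls passing in each condition, up to 4 members a list with the smallest p, and 18 photoperiod, clock and early genes chosen by name. Timeless, Npas2, Ttr and Gh were chosen after their values were seen. Promoters were searched in RefSeq sequences of GRCm38.p6.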

Additional observations from a re-analysis of the deposited data

Results flagged for a closer look

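The response to late-night light differed from that to evening light, by a test of the difference itself (log2, limma, adjusted p below 0.05), by 1.79 for Dram1, 2.01 for Pde10a, 0.828 for Nrp2, 1.86 for Hhip, 2.25 for Rorb, 1.52 for Srxn1, 1.74 for the predicted gene, 0.849 for Emd, 1.57 for Crem, 1.33 for Man2a1, 2.02 for Cldn7, 1.24 for Trhr, 1.13 for Dhrs3, 2.45 for Fst and 1.06 for Tnfrsf12a. For Thrsp the difference was -1.21.

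The response after 4 h of light differed from that after 8 h by the same kind of test, by 1.5 for Dram1, 2.98 for Pde10a, 0.89 for Nrp2, 1.8 for Hhip, 1.83 for Rorb, 1.57 for Srxn1, 1.09 for the predicted gene, 0.787 for Emd, 1.69 for Crem, 1.42 for Eya3, 1.49 for Hdac4, 1.31 for Maff, 1.01 for Adamts1, 1.29 for Man2a1, 1.66 for Dio2, 0.956 for Ankrd44, 1.2 for Espl1, 1.01 for Trhr, 1.09 for Dhrs3, 1.04 for Zswim6, 1.52 for Slco1c1, 1.58 for Rbm46, 0.816 for Clasp1, 0.975 for Anp32b, 1.09 for Bmper, 0.767 for Ttc39c, 0.965 for Rasa2, 1.29 for Pdzrn3 and 1.00 for Cdkl4. It was lower at 4 h by a difference of -0.722 for Sphkap and -1.15 for Gata2. Evening and late-night light share the short-day condition, and their difference contains the contrast by which the genes were chosen. The difference between 4 h and 8 h shares the ZT20 arrays with that contrast, while the ZT16 arrays cancel.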

How the results depend on the processing

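Under every setting the 40 genes kept the sign of their contrast, except Cdkl4, which was at -0.14 with the mean of all its probe sets. The count of genes passing was 27 with the 8 arrays alone (24 of the 40 among them), 33 with mean probe sets (29 of the 40), 40 with each probe set by itself (36 of the 40), 33 with genes above the median level, 36 with no variance trend, 39 with robust variances and 40 with centred arrays or a fold of 1.5. Under the settings with no second number every gene that passed was among the 40. The plain ZT20 difference gave 4186, 38 of the 40 among them. Leaving out single arrays gave 18 to 334 for the contrast, 67 to 100 for the change in advance, 7 to 972 under short days, 362 to 4337 at lights-on, 10 to 111 for late night minus evening and 34 to 53 for 4 h minus 8 h. A replicate block over all arrays or within each condition gave 44 and 53 genes for the contrast, 44 and 45 for late night minus evening and 39 under short days (within conditions). The short-day count was 31 with no trend, 29 with robust variances and 9 above the median level. The causes were not tested. Of the 40 genes, 25 lost their call in at least 1 omission of a single array. Signal over background could not be read from these summaries.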
